A study of Homo sapiens with 8 samples.

Results

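Expression of 10 actin contractile and cytoskeletal genes that are classical targets of serum response factor (SRF), namely ACTA2, TAGLN, TAGLN2, CNN1, MYL9, TPM1, TPM2, FLNA, VCL and ACTN1, was examined upon GRHL2 ectopic expression. The genes were chosen by symbol, and 10 of 10 were found among the 17561 genes of the deposited table. RNA-seq of mRNA had been performed on HepG2, a human cell line derived from a liver tumor, with 4 libraries from cells transfected with pGRHL2 and 4 from cells transfected with the control plasmid pcDNA3, all harvested after 48 h. The pGRHL2 plasmid carried a flag-tagged cDNA of the epithelial transcription factor GRHL2 behind an EEF1A1 promoter and also encoded a green fluorescent protein, whereas pcDNA3 was an empty vector, which means that the cDNA was not the only difference between the plasmids. Both groups were grown in the same serum-containing medium with insulin and dexamethasone. Each value is on a log2 scale and had been scaled to transcript length by the authors. The depth behind each value is unknown, as the table holds no counts.

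SRF binds DNA at the CArG box, a short A/T-rich element flanked by CC and GG, and works with alternative families of cofactors. Myocardin-related transcription factors (MRTFA and MRTFB) are held in the cytoplasm by monomeric actin and reach SRF once actin assembles into filaments, which turns on genes for actin, its binding proteins and adhesion proteins. Ternary complex factors instead respond to growth factor signaling and direct SRF to immediate early genes such as FOS. In the liver, the contractile genes are best known from smooth muscle and activated stellate cells, whereas filamin A, vinculin and alpha-actinin 1 are made by most adherent cells.

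The group labels were checked first. GRHL2 was higher in pGRHL2 than in pcDNA3 in 4 of 4 pairs, and its log2 fold change (log2 FC, pGRHL2/pcDNA3) was 9.48 ± 0.57 (SD over 4 pairs; adjusted p of 4.84e-08 in limma). In each gene, averaging the 2 libraries that carry the same number gave the same result for numbers 1 to 4, so that the values of a pair mirror each other and the groups of a gene do not overlap exactly when its 4 pair differences have the same sign. Hence results are given as differences within the 4 pairs, each log2 FC with the SD of those differences and the 95% interval from limma. Genes of the hepatocyte marker list were present, 7 of 7, with ALB and AFP at means of 16.9 and 17.1. AFP is not a marker of mature hepatocytes alone, as the study used its mouse counterpart to mark hepatoblasts. The fibroblast and smooth muscle markers COL1A2, COL3A1, DCN, LUM, THY1, MYH11, DES, LMOD1 and MYOCD were not among the genes listed. Other markers of these cell types were present. The means were 5.83 for COL1A1, 5.08 for PDGFRB, 3.48 for RGS5, 1.65 for PDGFRA, 4.11 for ACTG2, 4.56 for SYNM and 7.86 for CNN1. Among cholangiocyte markers, KRT19 and EPCAM were at 13.9 and 11.6, SOX9 at 9.57, KRT7 at 5.35 and CFTR at -1.07.

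The 10 genes were well expressed, and their levels differed more between genes than between plasmids. Filamin A (FLNA), which cross-links actin filaments into networks, was highest with a mean of 12.57 over the 8 libraries, above 99% of genes in the table or equal to them. It was followed by ACTN1 at 11.46 and by TPM1, TAGLN, TAGLN2 and VCL between 10.41 and 10.09. The remaining genes lay lower, with MYL9 at 8.39, ACTA2 at 8.14, CNN1 at 7.86 and TPM2 at 7.10, the last above or equal to 53.4% of genes. The gap from FLNA to ACTN1 was 1.11 and that from ACTN1 to TPM1 1.05 on this log2 scale, with no overlap between the 8 libraries of the 1 gene and those of the other. In contrast, the ranges of TPM1, TAGLN, TAGLN2 and VCL overlapped between neighbours, and TAGLN was above TAGLN2 in only 5 of 8 libraries. From VCL down to TPM2, the neighbouring ranges did not overlap.

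**Figure D1:**
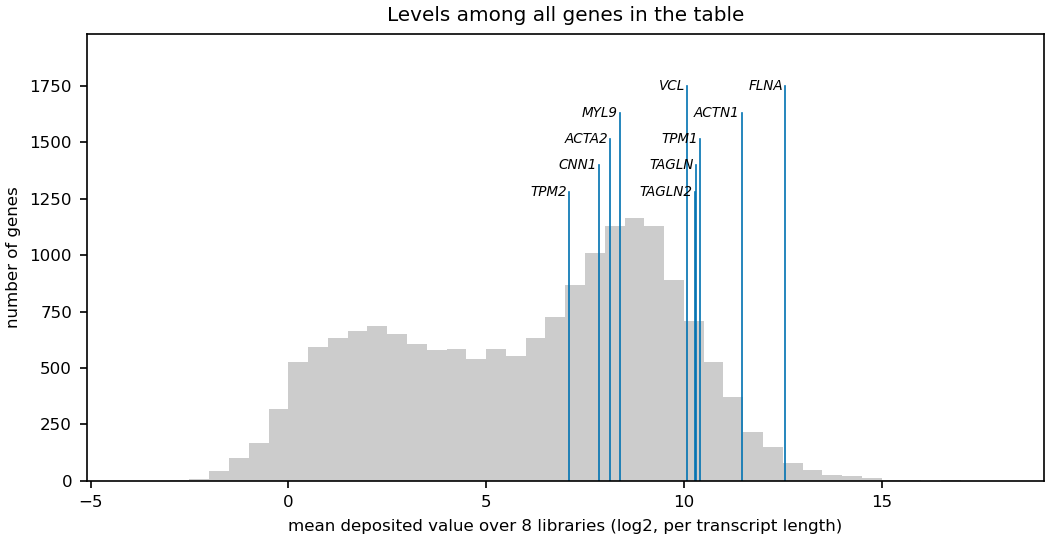
Levels of the 10 genes among all genes. The x axis is the mean deposited value over 8 libraries (log2, scaled to transcript length), the bars count the genes in steps of 0.5, and each blue line marks 1 of the 10 genes. The 10 genes lie between 7.10 (TPM2) and 12.57 (FLNA), in the upper hump of the distribution.

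The comparison of pGRHL2 with pcDNA3 asked whether these transcripts changed with GRHL2 ectopic expression. In limma, 0 of the 10 genes were higher and 0 were lower at an adjusted p under 0.05, where 1.69% of all 17561 genes were higher and 0.501% were lower. An unadjusted p under 0.05 was found for 0 of the 10, against 16% of all genes in either direction, and the fit without the replicate block called 0 as well. The groups overlapped for each of the 10 genes, whereas they did not overlap for 24% of all genes. The log2 FC of the 10 genes lay between -0.072 (FLNA) and 0.087 (CNN1) with a median of 0.0014, beside a median of 0.0017 over all genes. Their 95% intervals all lay between -0.27 and 0.28, so that changes beyond 0.828-fold or 1.22-fold were outside the interval of every gene. Among the 8006 genes with a mean in the range of these 10, 18 were called higher and 63 lower, GRHL2 aside. The smallest absolute log2 FC that was called there was 0.26, so that no smaller change was called at these levels with 4 pairs.

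**Figure D2:**
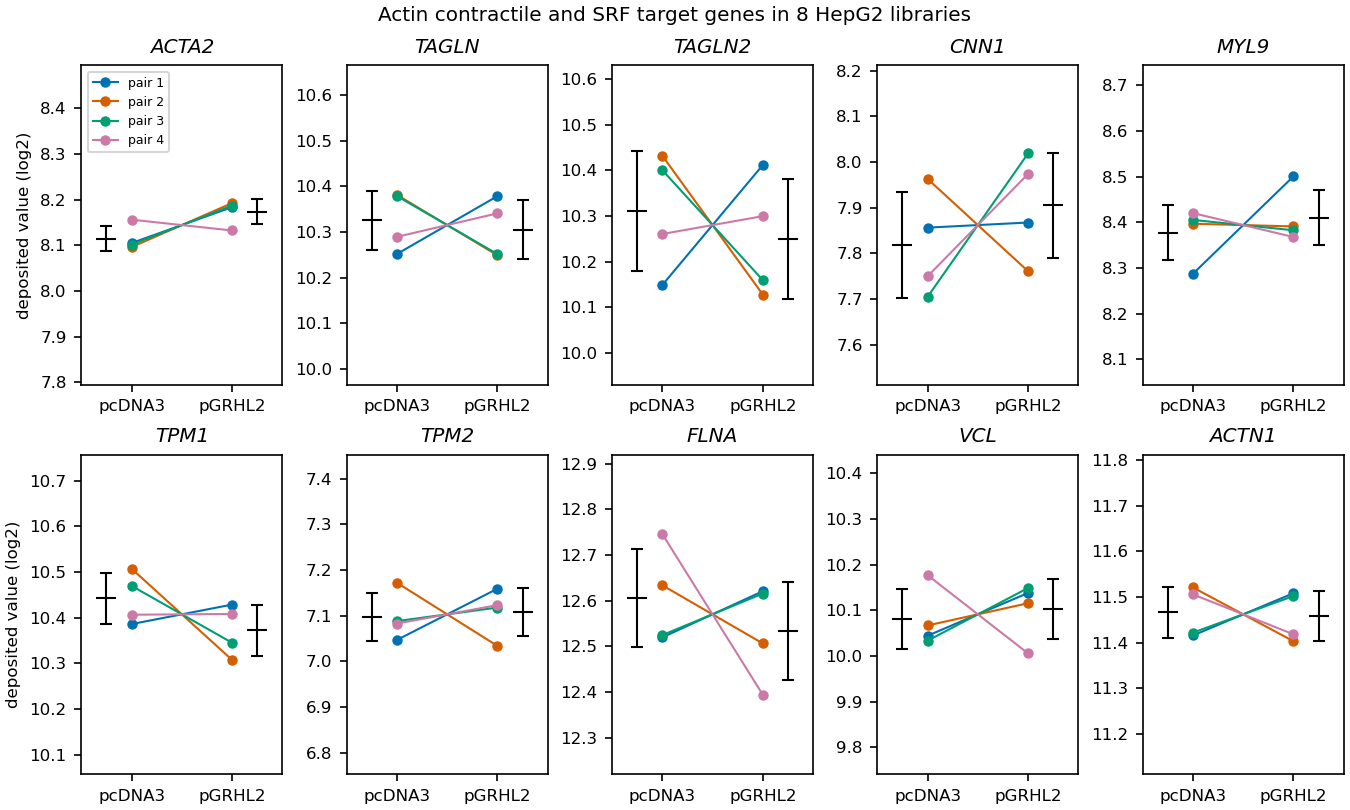
Deposited log2 values of the 10 genes in each of the 8 libraries. Each panel has the same height of 0.7 on the log2 scale, lines join the same-numbered pcDNA3 and pGRHL2 libraries, and black bars are group means with SD (n = 4). Lines cross in each panel, with some rising and others falling.

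ACTA2 (ENSG00000107796.13) encodes smooth muscle alpha-actin, the actin isoform whose appearance marks myofibroblasts. It lies on chromosome 10 from 88935074 to 88991339 on the minus strand of GRCh38. The 250 bases before a start site inside the gene, chr10:88952774-88953023 in GRCh38.p14 on the minus strand, are shown because they hold a pair of near matches to the CArG box, each with 1 mismatch and here in capitals, 121 and 71 bases before the start.

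ACTA2 promoter: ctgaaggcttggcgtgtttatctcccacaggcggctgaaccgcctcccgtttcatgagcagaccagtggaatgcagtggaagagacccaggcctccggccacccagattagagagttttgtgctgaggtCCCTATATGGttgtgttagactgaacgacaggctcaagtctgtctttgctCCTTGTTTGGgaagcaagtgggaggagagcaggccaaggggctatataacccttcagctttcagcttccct

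ACTA2 values in pcDNA3 libraries 1 to 4 were 8.11, 8.10, 8.10 and 8.16, and those in pGRHL2 libraries 1 to 4 were 8.18, 8.19, 8.19 and 8.13. It was thus higher with pGRHL2 in pairs 1, 2 and 3 and lower in pair 4, and the groups overlapped through that pair alone. The log2 FC was 0.059 ± 0.056 (SD, n = 4 pairs; 95% interval -0.066 to 0.18; limma adjusted p of 0.672), which is 1.04-fold. Of the exon bases of ACTA2, 36.2% are shared with FAS and other neighbouring genes in GENCODE release 44, and counting was unstranded, so that its level may be affected by how those reads were treated.

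Transgelin (TAGLN, ENSG00000149591.17, chromosome 11 from 117199370 to 117207464, plus strand) and its relative TAGLN2 (ENSG00000158710.15, chromosome 1 from 159918107 to 159925507, minus strand) encode calponin-family proteins that bind actin filaments. TAGLN was 10.25, 10.38, 10.38 and 10.29 in pcDNA3 libraries 1 to 4 and 10.38, 10.25, 10.25 and 10.34 in pGRHL2 libraries 1 to 4. TAGLN2 was 10.15, 10.43, 10.40 and 10.26 in pcDNA3 libraries 1 to 4 and 10.41, 10.13, 10.16 and 10.30 in pGRHL2 libraries 1 to 4. Both were higher with pGRHL2 in pairs 1 and 4 and lower in pairs 2 and 3. The log2 FC of TAGLN was -0.020 ± 0.13 (SD, n = 4 pairs; 95% interval -0.17 to 0.12; limma adjusted p of 0.927). The log2 FC of TAGLN2 was -0.061 ± 0.26 (SD, n = 4 pairs; 95% interval -0.27 to 0.15; limma adjusted p of 0.824), with the largest spread between pairs among the 10 genes, from -0.30 in pair 2 to 0.26 in pair 1. TAGLN shares 47.8% of its exon bases with PCSK7 and an unnamed gene, while TAGLN2 shares 0%.

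Calponin 1 (CNN1, ENSG00000130176.8, chromosome 19 from 11538767 to 11550323, plus strand) binds actin and restrains myosin activity in smooth muscle. Its values were 7.86, 7.96, 7.70 and 7.75 in pcDNA3 libraries 1 to 4 and 7.87, 7.76, 8.02 and 7.97 in pGRHL2 libraries 1 to 4. CNN1 was lower with pGRHL2 in pair 2 and higher in the other pairs, although by only 0.011 in pair 1. Its log2 FC of 0.087 ± 0.23 (SD, n = 4 pairs; 95% interval -0.11 to 0.28; limma adjusted p of 0.698) was the highest of the 10 genes. However, it was 0.011 without replicate 3, below ACTA2, MYL9 and TAGLN, and 0.18 without replicate 2.

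Tropomyosins lie along the actin filament and set which proteins can reach it, and TPM1 (ENSG00000140416.25, chromosome 15 from 63042620 to 63071915, plus strand) and TPM2 (ENSG00000198467.16, chromosome 9 from 35681992 to 35690056, minus strand) encode members of this family. TPM1 was 10.39, 10.51, 10.47 and 10.41 in pcDNA3 libraries 1 to 4 and 10.43, 10.31, 10.34 and 10.41 in pGRHL2 libraries 1 to 4. TPM2 was 7.05, 7.17, 7.09 and 7.08 in pcDNA3 libraries 1 to 4 and 7.16, 7.03, 7.12 and 7.12 in pGRHL2 libraries 1 to 4. The tropomyosins were both lower in pair 2, by 0.20 for TPM1 and 0.14 for TPM2 on the log2 scale, but differed in sign in pair 3. The log2 FC of TPM1 was -0.070 ± 0.11 (SD, n = 4 pairs; 95% interval -0.21 to 0.068; limma adjusted p of 0.645). The log2 FC of TPM2 was 0.011 ± 0.11 (SD, n = 4 pairs; 95% interval -0.12 to 0.14; limma adjusted p of 0.959). TPM1 shares 22.7% of its exon bases with its antisense gene and an unnamed gene, whose reads could not be told apart without strand, and TPM2 shares 0%.

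MYL9 (ENSG00000101335.10, chromosome 20 from 36541497 to 36551447, plus strand) encodes a regulatory light chain of non-muscle and smooth muscle myosin II, whose phosphorylation drives contraction. Its values were 8.29, 8.40, 8.41 and 8.42 in pcDNA3 libraries 1 to 4 and 8.50, 8.39, 8.38 and 8.37 in pGRHL2 libraries 1 to 4. MYL9 was higher with pGRHL2 in pair 1 alone, by 0.21, and its differences in pairs 2 to 4 were close to 0, at -0.0059, -0.023 and -0.052. Its log2 FC averaged 0.033 ± 0.12 (SD, n = 4 pairs; 95% interval -0.11 to 0.18; limma adjusted p of 0.872), and it was -0.027 without replicate 1.

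FLNA (ENSG00000196924.19) lies on chromosome X from 154348524 to 154374634 on the minus strand. The 250 bases before its start site, chrX:154374635-154374884 in GRCh38.p14, are shown because they hold a full CArG box, in capitals, 94 bases before the start.

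FLNA promoter: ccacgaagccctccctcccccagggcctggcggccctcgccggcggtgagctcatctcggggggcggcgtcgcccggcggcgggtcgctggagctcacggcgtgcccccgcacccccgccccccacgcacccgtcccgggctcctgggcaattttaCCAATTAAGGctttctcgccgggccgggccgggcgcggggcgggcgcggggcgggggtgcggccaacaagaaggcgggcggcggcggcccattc

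FLNA was 12.52, 12.63, 12.52 and 12.75 in pcDNA3 libraries 1 to 4 and 12.62, 12.51, 12.62 and 12.39 in pGRHL2 libraries 1 to 4. The pcDNA3 library of pair 4 was the highest of the 8 and its pGRHL2 partner the lowest. The log2 FC was -0.072 ± 0.21 (SD, n = 4 pairs; 95% interval -0.24 to 0.098; limma adjusted p of 0.713), and it was 0.022 without replicate 4.

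Alpha-actinin 1 (ACTN1, ENSG00000072110.16, chromosome 14 from 68874128 to 68979440, minus strand) bundles actin filaments and ties them to focal adhesions. The 250 bases before 1 of its start sites, chr14:68977567-68977816 in GRCh38.p14, are shown because they also hold a full CArG box, in capitals, 171 bases before the start.

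ACTN1 promoter: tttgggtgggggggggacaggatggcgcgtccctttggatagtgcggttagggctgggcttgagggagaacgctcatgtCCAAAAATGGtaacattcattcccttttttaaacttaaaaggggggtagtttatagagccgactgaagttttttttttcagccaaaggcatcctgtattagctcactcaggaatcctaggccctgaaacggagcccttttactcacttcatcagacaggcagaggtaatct

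ACTN1 was 11.42, 11.52, 11.42 and 11.51 in pcDNA3 libraries 1 to 4 and 11.51, 11.40, 11.50 and 11.42 in pGRHL2 libraries 1 to 4. It was higher with pGRHL2 in pairs 1 and 3 and lower in pairs 2 and 4, the same signs as FLNA. Its log2 FC was -0.0081 ± 0.11 (SD, n = 4 pairs; 95% interval -0.14 to 0.12; limma adjusted p of 0.971).

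Vinculin (VCL, ENSG00000035403.18, chromosome 10 from 73995193 to 74121363, plus strand) couples integrin adhesions to actin filaments under tension. Its values were 10.04, 10.07, 10.03 and 10.18 in pcDNA3 libraries 1 to 4 and 10.14, 10.12, 10.15 and 10.01 in pGRHL2 libraries 1 to 4. VCL was thus higher with pGRHL2 in pairs 1, 2 and 3 and lower by 0.17 in pair 4. The log2 FC was 0.022 ± 0.13 (SD, n = 4 pairs; 95% interval -0.13 to 0.17; limma adjusted p of 0.922), and it was 0.086 without replicate 4.

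**Figure D3:**
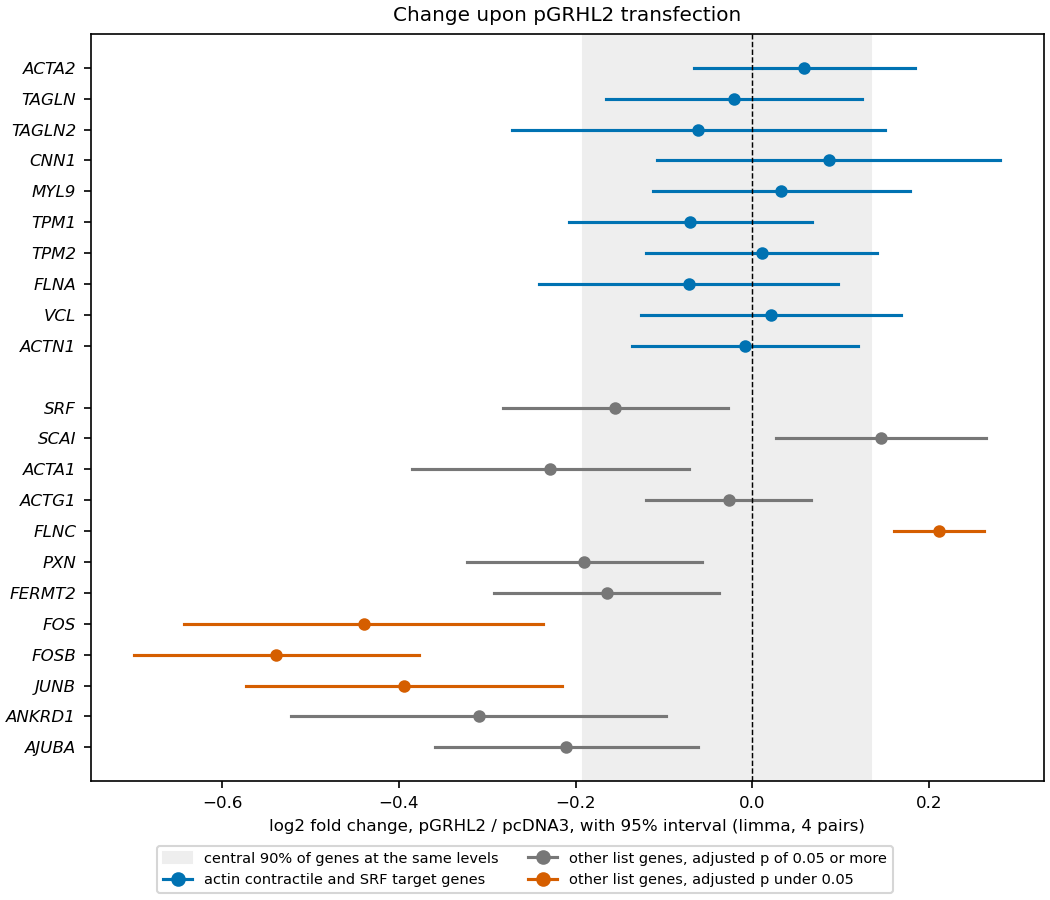
Log2 FC (x axis, pGRHL2/pcDNA3) with the 95% interval from limma (lines, 4 pairs) for the 10 genes in blue and for other genes of the SRF pathway, the actin family and YAP and TEAD targets below them, in orange where the adjusted p was under 0.05. The grey band runs from the 5th to the 95th percentile of the 8006 genes at the same levels, -0.19 to 0.13, and the 10 blue points all lie inside it.

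Promoter windows of 300 bases, from 250 before to 50 after a start site, were given in RefSeq (GRCh38.p14) for 8 of the 10 genes, as 15 windows. TAGLN and MYL9 had no entry. A CArG box was found on either strand in 2 of 15 windows, those of FLNA and ACTN1 printed above, against 1.29% of 35116 promoter windows. With 1 mismatch allowed at any letter, a setting chosen after seeing the data, ACTA2 was added, giving 3 of 15 windows (20%) against 18.9% of all windows. The letters AACCGGTT, the consensus bound by Grainyhead-like factors, were found in 0 of 15 windows and in 0.134% of all windows. The TEAD motif CATTCC was found in ACTA2, ACTN1 and VCL, 3 of 15 windows, against 14% of all windows. The genes with a full CArG box, FLNA and ACTN1, had log2 FC of -0.072, the lowest of the 10, and -0.0081.

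The differences within pairs were counted next. In pair 1, 10 of 10 genes were higher with pGRHL2, with a median difference of 0.097, and in pair 2, 8 of 10 were lower, with a median of -0.13. In pairs 3 and 4, 6 and 5 of 10 were higher, with medians of 0.055 and -0.011. Over all genes, the median differences of pairs 1 to 4 were 0.0016, 0.0059, 0.0013 and 0.00080. In the deposited values, the direction of each of the 10 genes thus changed between pairs. The median SD of the pair differences was 0.13 for the 10 genes and 0.12 for the genes at the same levels.

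The signs fell into a few patterns. TAGLN, TAGLN2 and TPM1 were higher in pairs 1 and 4 and lower in pairs 2 and 3, whereas FLNA and ACTN1 were higher in pairs 1 and 3 and lower in pairs 2 and 4. ACTA2 and VCL were lower in pair 4 alone, CNN1 and TPM2 in pair 2 alone, and MYL9 was higher in pair 1 alone. FLNA, VCL and ACTN1, with mean transcript lengths of 3445, 3548 and 2727 bases, belong to the longest of 5 length classes of equal size, formed from the genes with a mean value of at least 5. In that class, the median difference over all genes was -0.079 in pair 4 and 0.042 in pair 3, against 0.036 and -0.045 in the shortest class, to which CNN1 and TPM2 belong. FLNA, VCL and ACTN1 were at -0.35, -0.17 and -0.087 in pair 4 and at 0.091, 0.12 and 0.080 in pair 3. With trends on level, length and GC content removed from each pair, FLNA, VCL and ACTN1 were at -0.30, -0.11 and -0.037 in pair 4, and the log2 FC of the 10 genes lay between -0.086 and 0.079. ACTA2 in pair 4 moved from -0.024 to 0.00050, so that it was then higher with pGRHL2 in 4 of 4 pairs and its groups no longer overlapped, with an adjusted p of 0.595 in limma. The counts of genes higher in pairs 1 to 4 were then 9, 2, 6 and 6 of 10.

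**Figure D4:**
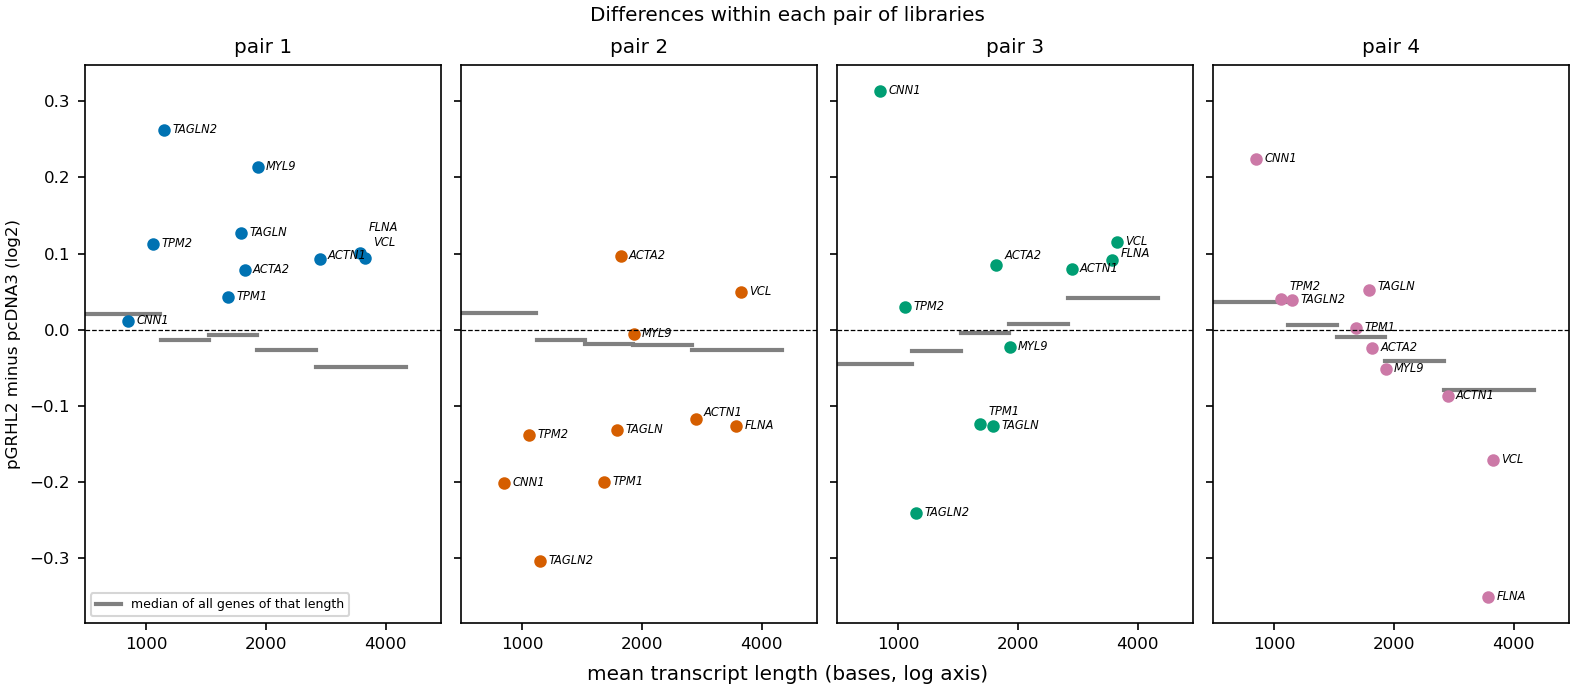
Difference between pGRHL2 and pcDNA3 (y axis, log2) within each pair for the 10 genes (points), by mean transcript length (x axis, bases, log axis). Grey lines are medians over all genes with a mean of at least 5 in each of 5 length classes. The 10 points lie above 0 in pair 1, mostly below 0 in pair 2 and on both sides of 0 in pairs 3 and 4.

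Marker genes also moved within pairs. In pair 2, where 8 of the 10 genes were lower, 7 of 7 hepatocyte markers were higher with pGRHL2 (median difference 0.31), against 2 of 7 in each of pairs 1, 3 and 4. The summed level of the hepatocyte markers, AFP included, ranged from 18.05 to 18.26 in pcDNA3 and from 18.14 to 18.35 in pGRHL2. Of the fibroblast and stellate cell markers, 4 of 10 were listed, with a summed level of 6.61 to 6.72 in pcDNA3 and 6.71 to 6.82 in pGRHL2, and PDGFRA rose slightly (log2 FC 0.087, limma adjusted p of 0.0393) at a low mean of 1.65. COL1A1 was at a log2 FC of 0.20 without passing adjustment (limma adjusted p of 0.0838), RGS5 at 0.035 and PDGFRB at -0.0058. Of these 4 markers, 3 were higher in 4 of 4 pairs, against 24% of all genes in either direction. Of the smooth muscle markers, ACTG2, SYNM and CNN1 (itself 1 of the 10 genes) were listed, 3 of 7, with a summed level of 7.97 to 8.19 in pcDNA3 and 8.01 to 8.23 in pGRHL2. The 5 of 5 listed cholangiocyte markers summed to 14.02 to 14.36 and 14.11 to 14.45, respectively. KRT7 was at a log2 FC of 0.19 without passing adjustment (limma adjusted p of 0.097). KRT19, EPCAM, SOX9 and CFTR were at 0.15, 0.11, 0.041 and 0.0094. All 8 libraries came from 1 cell line, so these markers were not taken as counts of separate cell types. Their part in the values of the 10 genes was not tested. A change in some of the cells cannot be told apart from a change in all of them.

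The regulators of the 10 genes were described next. SRF itself was lower with pGRHL2 in 4 of 4 pairs, by 0.11 to 0.24. Across all genes, 24% had the same sign in 4 of 4 pairs. The log2 FC of SRF was -0.15 (95% interval -0.28 to -0.027) and did not pass adjustment (limma adjusted p of 0.219, and 0.0065 without the replicate block). The fit without the block counts degrees of freedom that the mirrored values do not have. It called 1821 of the 17561 genes higher and 1427 lower. This limit holds for each adjusted p given below without the block. For SCAI, a nuclear inhibitor of MRTF, the log2 FC was 0.15 (adjusted p of 0.214 in limma, and 0.0215 without the replicate block). The cofactors MRTFA and MRTFB were at log2 FC of -0.088 and -0.10 (adjusted p of 0.618 and 0.538 in limma). LIMK1 and ELK3, from the same list, were at 0.12 and 0.11 (adjusted p of 0.349 and 0.715 in limma), with LIMK1 higher in 4 of 4 pairs. In all, 0 of 20 listed regulators of SRF were called, with a median of -0.013. An unadjusted p under 0.05 in limma was found for 2 of 20, 1 higher and 1 lower, against 16% of all genes. MYOCD and ABRA were not among the genes listed.

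Other SRF targets with a role in actin filaments, myosin or adhesion were also counted. Of 28 listed, 1 was higher and 0 were lower at an adjusted p under 0.05, with a median log2 FC of -0.0055. The gene called was FLNC, a muscle relative of FLNA, at 1.24, 1.18, 1.19 and 1.19 in pcDNA3 libraries 1 to 4 and 1.37, 1.43, 1.43 and 1.42 in pGRHL2 libraries 1 to 4. FLNC rose by 0.21 ± 0.059 on the log2 scale (SD over 4 pairs; adjusted p of 0.00354 in limma), but its mean of 1.31 was far below the 12.57 of FLNA, and the call was lost in limma without the mean-variance trend (adjusted p of 0.0953). Of the 28, 4 were higher and 3 were lower in 4 of 4 pairs, against 24% of all genes in either direction. Among those higher, FLNC, FHL1 and SYNPO2 had low means, of 1.31, 0.068 and -0.41. Those lower were CALD1, FERMT2 and PXN, with means of 11.4, 9.75 and 7.97. The log2 FC of CALD1 was -0.15 (limma adjusted p of 0.223). PXN and FERMT2, which encode the adhesion proteins paxillin and kindlin-2, were among those lower, without passing adjustment. Their log2 FC were -0.19 and -0.16 (adjusted p of 0.148 and 0.189 in limma, and 0.0065 and 0.00557 without the replicate block). ITGA5, an integrin gene, was among those higher, with a log2 FC of 0.12 (adjusted p of 0.155 in limma). Of the other actins, 0 of 5 were called. The skeletal muscle actin ACTA1 was at a log2 FC of -0.23 (adjusted p of 0.139 in limma, and 0.0156 without the replicate block) and the cytoplasmic actin ACTG1 at -0.026 (adjusted p of 0.829 in limma), beside 0.059 for ACTA2.

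Of 8 immediate early genes that SRF controls with ternary complex factors, 3 were called lower and 0 higher. Over all genes, 0.501% were called lower and 1.69% higher. The list was chosen with earlier results of these data known, so this contrast is a description only. These were FOS, FOSB and JUNB, which encode subunits of the AP-1 transcription factor. FOS was 8.07, 8.07, 8.23 and 7.92 in pcDNA3 libraries 1 to 4 and 7.64, 7.63, 7.48 and 7.78 in pGRHL2 libraries 1 to 4. It fell by 0.44 on the log2 scale (limma adjusted p of 0.0452). FOSB fell by 0.54 (limma adjusted p of 0.00861) and JUNB by 0.39 (limma adjusted p of 0.0425), also with groups that did not overlap. The call of FOS was lost without replicate 1, 2 or 3 (adjusted p of 0.19, 0.159 and 0.124), that of JUNB without the same replicates (0.205, 0.169 and 0.145) and that of FOSB without replicate 3 (0.0626). All 3 were lost in limma without the trend (adjusted p of 0.155, 0.13 and 0.0953 for FOS, JUNB and FOSB), and JUNB also with the level, length and GC trends removed (0.0564). EGR2, from the same list, was higher in 4 of 4 pairs without passing adjustment, with a log2 FC of 0.19 (adjusted p of 0.0909 in limma). Of the rest, EGR1 and EGR3 were at log2 FC of 0.068 and 0.014, and IER2 and MCL1 at -0.14 and -0.0435. Whether the immediate early genes differed from the 10 contractile genes was not tested. Of the YAP and TEAD targets, 0 of 7 were called, with a median log2 FC of -0.053. CCN1, CCN2 and AMOTL2 were at log2 FC of -0.047, 0.0046 and -0.053, LATS2 at -0.15 and AXL at 0.14. ANKRD1 and AJUBA were at log2 FC of -0.31 and -0.21 (adjusted p of 0.139 and 0.151 in limma), and without the replicate block their adjusted p was 0.0337 and 0.025, respectively. ANKRD1 was higher with pGRHL2 in pair 4 alone, by 0.057. Without replicate 4, its log2 FC was -0.43, past the threshold (limma adjusted p of 0.045). It was not called without replicate 1, 2 or 3 (limma adjusted p of 0.395, 0.394 and 0.298).

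**Figure D5:**
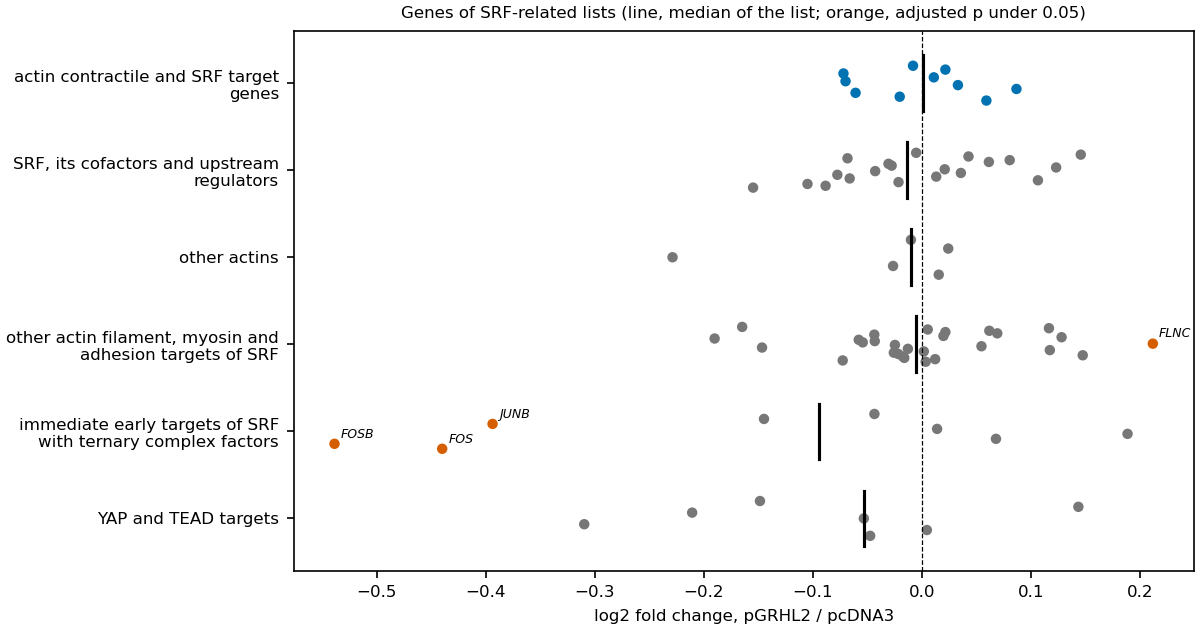
Log2 FC (x axis, pGRHL2/pcDNA3) of each gene in 6 lists, with 1 point per gene, black lines at list medians and orange for an adjusted p under 0.05. The 10 contractile genes (blue) lie between -0.072 and 0.087, while FOS, FOSB and JUNB lie between -0.54 and -0.39.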

How the data were processed

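mRNA libraries of HepG2 cells (4 pGRHL2, 4 pcDNA3) were analysed from 1 table of 17561 genes. According to the methods of the study, reads were mapped to hg38, counted over exons without strand and in union mode, and genes with few reads were removed. The submitters' processing notes name HISAT2 2.2.1, HTSeq 0.9.1 and DESeq2 1.40.2. The authors deposited log2 values (DESeq2 rlog, scaled to mean transcript length), although the table is named as FPKM. This transformation shrinks differences where reads are few. The table held 0 columns of other samples, and 1 stray character was removed.

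The mean of same-numbered libraries was identical for all 4 numbers (largest spread 1.5e-13), a step the methods do not describe. This makes a correlation check of the pairing void, since mirrored values correlate at -1 by construction. Values were tested with limma 3.58.1 in R 4.3.3 (lmFit with the replicate number as a block, eBayes with trend) over all 17561 genes with Benjamini-Hochberg adjustment, and genes with an adjusted p under 0.05 were called. The script was tested on simulated data. The p-values rest in part on the spread between pairs, said by the study to be independent biological replicates. The variance of each gene was also drawn toward the trend over all genes, with 3 residual and 8.63 total degrees of freedom.

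The genes and lists were chosen with earlier results of these data known. Named are the 10 genes, GRHL2 and, from each SRF, actin or YAP list, each gene called plus the 2 largest absolute log2 FC at a mean of at least 5. MRTFA, MRTFB, LIMK1, ELK3, ITGA5, EGR1, EGR2, EGR3, IER2, MCL1 and the marker genes named were added after their values were seen. So were CCN1, CCN2, AMOTL2, LATS2, AXL, CALD1, FHL1 and SYNPO2. Lengths, GC content and shared exon bases came from GENCODE release 44 (99.9% of genes matched), promoters from RefSeq (GRCh38.p14).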

Additional observations from a re-analysis of the deposited data

Results flagged for a closer look

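The difference of ACTA2 in pair 4 was -0.024, apart from 0.079, 0.096 and 0.085 in pairs 1 to 3. The gap to the nearest of these took 0.852 of the range of the 4 pairs, above Dixon's 95% critical value for 4 values. Of 22 genes examined in this way, 1 was marked, and chance alone marks about 1 in 20.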

How the results depend on the processing

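Of the 10 genes, 0 were called higher or lower under each alternative tried: no replicate block, robust limma, limma without trend, 2 other scalings, a mean of at least 5, trends removed, an adjusted p under 0.01, an unadjusted p under 0.05, and each replicate number left out. Their lowest adjusted p was 0.164 without the replicate block and 0.419 without 1 replicate. The direction turned for TPM2 with trends removed (-0.0062) and for ACTN1 with libraries centred on their median (0.0076) or scaled to the same total without GRHL2 (0.0054). Leaving out 1 replicate turned the direction of 7 of the 10 genes, with ranges of -0.069 to 0.017 for TAGLN, -0.17 to 0.020 for TAGLN2, -0.027 to 0.062 for MYL9, -0.023 to 0.061 for TPM2, -0.13 to 0.022 for FLNA, -0.0097 to 0.086 for VCL and -0.042 to 0.029 for ACTN1, and that of ACTG1 (-0.061 to 0.010). The ranges were 0.047 to 0.087 for ACTA2, 0.011 to 0.18 for CNN1 and -0.11 to -0.027 for TPM1, with no turn. Over all genes, 297 were higher and 88 lower. The counts were 1821 and 1427 without the replicate block, which counts degrees of freedom that the mirrored values do not have, and 4 and 2 without trend. Higher genes numbered 550 when centred, 495 when scaled to the same total, 63 at a mean of at least 5 and 150 with trends removed. Without 1 replicate, 79 to 156 were higher and 8 to 68 lower. Of the genes in the SRF, actin and YAP lists, 1 was higher and 3 were lower, against 6 and 11 without the replicate block, 0 and 0 without trend, 0 higher at a mean of at least 5, and 0 to 4 lower without 1 replicate. The cause was not tested. With 1 mismatch allowed in the C and G letters of the CArG box, 2 of 15 windows (13.3%) matched, against 13% of all windows.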
